A study of Mus musculus with 9 samples.

Results

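Toll-like receptors are membrane proteins of macrophages, dendritic cells and other cells that recognise parts of microbes. Those at the cell surface bind bacterial lipids and proteins, and those in endosomes bind nucleic acids. Nearly all pass the signal on through the adaptor Myd88 to kinases, the NF-kB factors and inflammatory genes. In the lung they meet inhaled material, and the receptor for bacterial lipopolysaccharide, Tlr4, is known to shape sensitisation to inhaled allergens in mice. The genes followed here are the surface receptors Tlr1, Tlr2, Tlr4, Tlr5 and Tlr6, the endosomal receptors Tlr3, Tlr7 and Tlr9, the co-receptor Cd14 and the adaptor Myd88. They were chosen by symbol, and each had 1 probe, so 10 of the 39464 probes are described, or 10 of the 25761 named genes.

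The probes were read on 9 Agilent arrays of 2 colours, hybridised with amplified RNA of whole lungs of BALB/c mice aged about 12 weeks. By the labels, 4 arrays carried lungs of mice given PBS (buffered saline), called the PBS arrays below, and 5 carried lungs of mice given ovalbumin (OVA), an egg protein used to induce allergic airway inflammation in mice, called the OVA arrays. The labels put 1 sample in channel 2 (Cy5) and, on every array, pooled RNA from PBS lungs in channel 1 (Cy3). Whether the samples of a group were separate animals is not stated, so p-values measure only the spread between these samples, and the number of arrays limits the precision. Intensities are on a scale set by the authors, from 0.00055 to 70.2 with a median of 0.14, and are mostly rounded to 2 decimals. Of the lung markers, the ciliated cell factor Foxj1 lay between 5.12 and 7.40 in all 18 channels. Its mean was 5.39 in channel 1 of the OVA arrays, against 6.79 to 7.07 in the other channels of the groups. In the fit used below, its ratio of channel 2 over 1 was higher on the OVA arrays (log2 change 0.41, limma, adjusted p = 4.43e-04). The surfactant genes Sftpc and Sftpb were blank on all arrays but 1 OVA array, where they lay between 31.7 and 41.1, and 3 other lung markers were matched to no probe.

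The comparison asked which of these genes differ between lungs given OVA and lungs given PBS. By the ratio of the channels (2 over 1), Cd14, Tlr1, Tlr4, Myd88 and, by a small margin, Tlr2 were higher on the OVA arrays, Tlr3 was lower, and Tlr5, Tlr6, Tlr7 and Tlr9 did not pass the test (limma over 25720 genes, adjusted p under 0.05, n = 5 against 4). Of all genes, 40.3% passed the same test, 17.3% higher and 23% lower. Of the surface receptors, 3 of 5 were higher and none lower, and of the endosomal receptors, none of 3 was higher and 1 was lower. For 5 of the 10 members the ratios of the OVA and PBS arrays did not overlap, against 34.5% of genes. Only Cd14 and Tlr1 were past 2-fold as well, against 3.04% of genes. The median log2 change was 0.14 over the members and -0.017 over all genes.

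Every direction given is that of the ratio as deposited and is not settled, because the intensities in each channel taken alone do not match what the labels put there. The members whose ratio was higher had like intensities in both channels of the PBS arrays and in channel 2 of the OVA arrays. They were dimmer in channel 1 of the OVA arrays, which by the labels holds the same pool as on the PBS arrays. Which RNA that channel held cannot be told from the files. If it held the OVA lungs, the sign of the OVA ratios has to be turned, and if the names of the groups are exchanged too, the deposited directions hold. With the sign of the OVA ratios turned, 1 member was higher (Tlr3) and 6 were lower, Tlr7 among them, against 22.5% and 16.5% of genes.

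**Figure D1:**
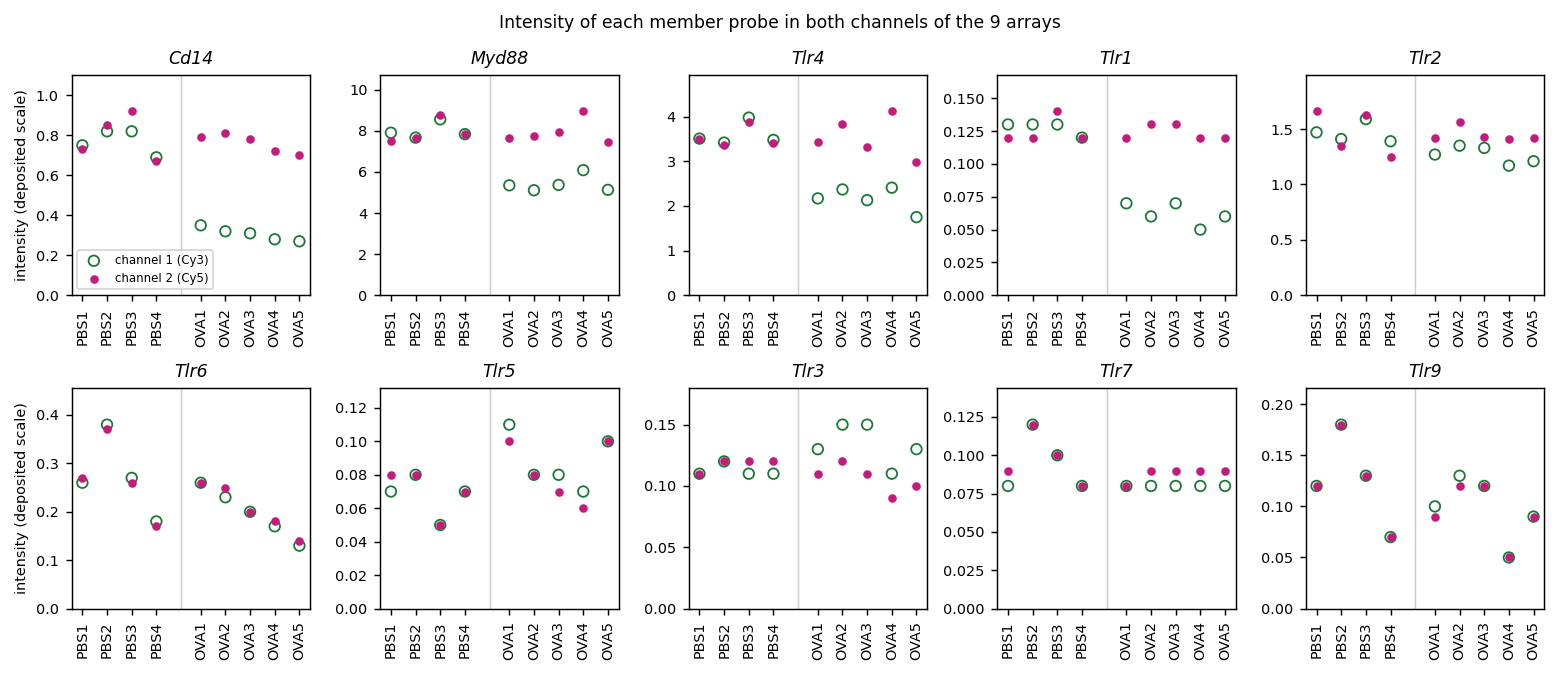
Intensity of each member probe on the deposited scale (linear vertical axes from 0, a scale per gene) in channel 1 (open green circles) and channel 2 (filled magenta points) of the 4 PBS and 5 OVA arrays. For Cd14, Myd88, Tlr4 and Tlr1 the open circles of the OVA arrays lie below all other points, while for Tlr6 and Tlr9 both channels of an array move together.

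Cd14, a surface protein that hands lipopolysaccharide to the Tlr4 complex, had the largest difference among the members. Its channel 2 read 0.79, 0.81, 0.78, 0.72 and 0.70 on the OVA arrays, and its channel 1 read 0.35, 0.32, 0.31, 0.28 and 0.27. On the PBS arrays channel 2 read 0.73, 0.85, 0.92 and 0.67 and channel 1 read 0.75, 0.82, 0.82 and 0.69. Only channel 1 of the OVA arrays stood apart, and the ratios of the 2 groups did not overlap. The ratio was 2.43-fold higher on the OVA arrays (log2 change 1.28 ± 0.06 SE, limma, adjusted p = 1.04e-06). In whole-lung RNA, a difference in the number of cells of a type and one in RNA per cell cannot be told apart.

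Tlr4, the receptor for bacterial lipopolysaccharide, read 3.44, 3.84, 3.31, 4.12 and 2.99 in channel 2 and 2.17, 2.37, 2.13, 2.41 and 1.75 in channel 1 of the OVA arrays. On the PBS arrays it read 3.49, 3.36, 3.87 and 3.41 in channel 2 and 3.51, 3.42, 3.98 and 3.48 in channel 1. Channel 1 was the lower on each of the 5 OVA arrays, whereas the channels of a PBS array differed at most 1.03-fold. The ratio was 1.66-fold higher (log2 change 0.73 ± 0.03 SE, limma, adjusted p = 1.15e-06). Ly96 (MD-2), the protein that binds lipopolysaccharide together with Tlr4, was also higher, by 1.86-fold (log2 change 0.90 ± 0.09 SE, adjusted p = 9.02e-05). Lbp, the serum protein that carries lipopolysaccharide to Cd14, had a log2 change of 0.19 (adjusted p = 0.020), and its groups overlapped.

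Myd88, the adaptor shared by all of these receptors but Tlr3, had the brightest probe. It read 7.66, 7.74, 7.92, 8.95 and 7.44 in channel 2 and 5.35, 5.11, 5.37, 6.09 and 5.13 in channel 1 of the OVA arrays. On the PBS arrays it read 7.49, 7.67, 8.78 and 7.87 in channel 2 and 7.91, 7.67, 8.56 and 7.84 in channel 1. The OVA ratios lay close together, between 0.52 and 0.60 on the log2 scale, and clear of the PBS ratios, between -0.079 and 0.037. The ratio was 1.48-fold higher (log2 change 0.56 ± 0.03 SE, limma, adjusted p = 2.05e-06).

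Tlr1, which pairs with Tlr2 to bind triacylated lipopeptides, was dim. It read 0.12, 0.13, 0.13, 0.12 and 0.12 in channel 2 and 0.07, 0.06, 0.07, 0.05 and 0.06 in channel 1 of the OVA arrays. On the PBS arrays it read 0.12, 0.12, 0.14 and 0.12 in channel 2 and 0.13, 0.13, 0.13 and 0.12 in channel 1. Again channel 1 of the OVA arrays was the only set to stand apart. The ratio was 2.06-fold higher (log2 change 1.04 ± 0.10 SE, limma, adjusted p = 6.83e-05). Rounding alone leaves this log2 change between 0.75 and 1.34, and with 0.05 added to both channels it was 0.66.

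Tlr2, the shared partner of Tlr1 and Tlr6 for lipoproteins, was bright enough to be little touched by rounding and hardly differed. It read 1.42, 1.56, 1.43, 1.41 and 1.42 in channel 2 and 1.27, 1.35, 1.33, 1.17 and 1.21 in channel 1 of the OVA arrays. On the PBS arrays it read 1.66, 1.35, 1.63 and 1.25 in channel 2 and 1.47, 1.41, 1.59 and 1.39 in channel 1. The ratios of the 2 groups overlapped, and the ratio was 1.15-fold higher (log2 change 0.20 ± 0.07 SE, limma, adjusted p = 0.046). This call does not hold up: it was lost without PBS replicate 2 (adjusted p = 0.11), 3 (0.074) or 4 (0.11), without OVA replicate 1 (0.066), 2 (0.084), 4 (0.096) or 5 (0.091) and with quantile normalised ratios (0.67). Tlr6, the other partner of Tlr2, changed by 0.092 ± 0.04 SE in log2 (adjusted p = 0.10, and 0.040 without PBS replicate 1). Tlr5, the receptor for flagellin, was at -0.16 ± 0.06 SE (adjusted p = 0.089). Rounding alone leaves the log2 change of Tlr5 between -0.55 and 0.23 and that of Tlr6 between -0.041 and 0.23. The genes of Tlr1 and Tlr6 lie close together on chromosome 5, and the stretch that covers both holds 1 other whole annotated gene, a microRNA. Tlr6 did not share the low channel 1 of Tlr1: it ran from 0.13 to 0.26 there and from 0.14 to 0.26 in channel 2 of the OVA arrays.

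Of the endosomal receptors, Tlr3, which binds double-stranded RNA and signals through Ticam1 in place of Myd88, was the only member with a lower ratio. It read 0.11, 0.12, 0.11, 0.09 and 0.10 in channel 2 and 0.13, 0.15, 0.15, 0.11 and 0.13 in channel 1 of the OVA arrays. On the PBS arrays it read 0.11, 0.12, 0.12 and 0.12 in channel 2 and 0.11, 0.12, 0.11 and 0.11 in channel 1. The ratios did not overlap, although the intensities in each single channel did. The ratio was 1.32-fold lower (log2 change -0.40 ± 0.05 SE, limma, adjusted p = 3.12e-04), and rounding alone leaves it between -0.65 and -0.15. Tlr7, a receptor for single-stranded RNA, was at a log2 change of 0.093 ± 0.05 SE (adjusted p = 0.20, and 0.047 without OVA replicate 1). Tlr9, which binds unmethylated CpG DNA, was at -0.053 ± 0.04 SE (adjusted p = 0.31). For both, rounding spans changes in both directions.

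Tlr9 and Tlr6 varied between arrays far more than between the channels of an array. Tlr9 ranged 3.6-fold over the arrays in each channel, from 0.05 on OVA replicate 4 to 0.18 on PBS replicate 2, but its channels were equal on all 4 PBS arrays and at most 1.11-fold apart on the OVA arrays. Tlr6 ranged 2.92-fold in channel 1 and 2.64-fold in channel 2, with its highest values, 0.38 and 0.37, again on PBS replicate 2. The median over all probes was 0.17 in both channels of PBS replicate 2, the highest of the arrays, and 0.12 on OVA replicate 4, the lowest. The part of these array medians in the spread of the dim members was not tested.

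**Figure D2:**
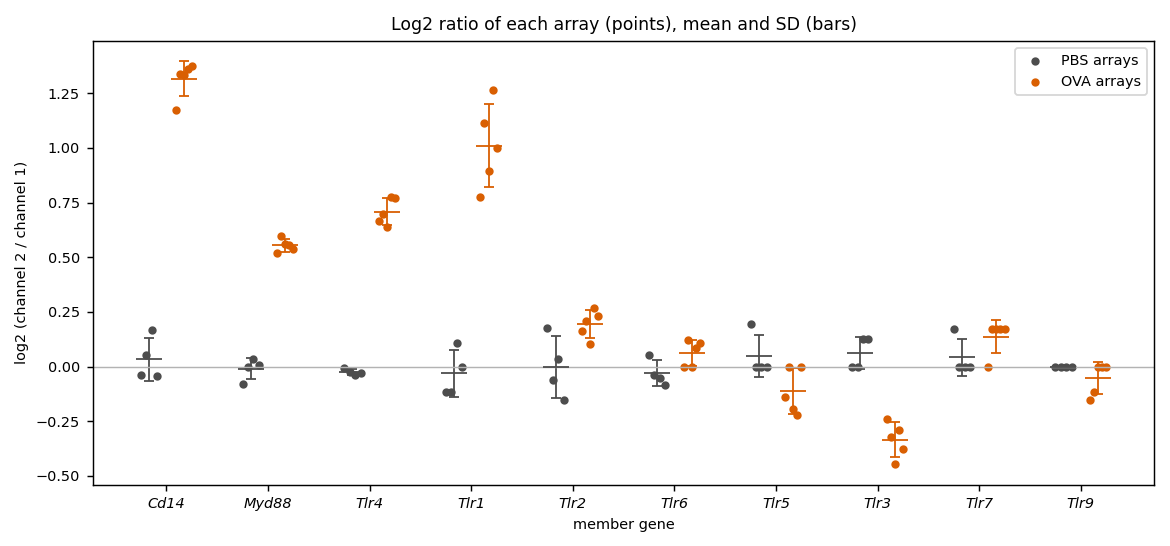
Log2 ratio of channel 2 over channel 1 of each member on the 4 PBS (grey) and 5 OVA (orange) arrays, with the mean and SD of each group. The OVA points of Cd14, Myd88, Tlr4 and Tlr1 lie above all PBS points and those of Tlr3 below them, while the groups overlap for the other 5 members.

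The channels were then compared on their own. In channel 1 alone, 4 of the 10 members were lower on the OVA arrays and none was higher, against 12% and 15.6% of all genes, or 27.7% in both directions (limma, adjusted p under 0.05). The groups did not overlap there for 5 members, against 26.2% of genes. The log2 difference was -1.33 ± 0.10 SE for Cd14 (adjusted p = 9.19e-06), -1.05 ± 0.10 for Tlr1 (7.61e-05), -0.74 ± 0.10 for Tlr4 (5.83e-04) and -0.57 ± 0.07 for Myd88 (3.51e-04). Tlr2 was at -0.21 ± 0.07 (adjusted p = 0.056) without overlap of the groups, and Tlr3 at 0.24 ± 0.10 (adjusted p = 0.10). In channel 2 alone, which by the labels holds the lungs compared, none of the members differed, none had an unadjusted p under 0.05, and the smallest adjusted p was 0.87, against 0.00778% of genes called (2 of 25720, with 932 at an unadjusted p under 0.05). The groups overlapped for all 10, against 0.696% of genes without overlap. There Cd14 was at -0.052 ± 0.10, Tlr4 at -0.0038 ± 0.10 and Myd88 at -0.0022 ± 0.08. For these genes the difference in the ratio was nearly equal in size to that in channel 1.

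**Figure D3:**
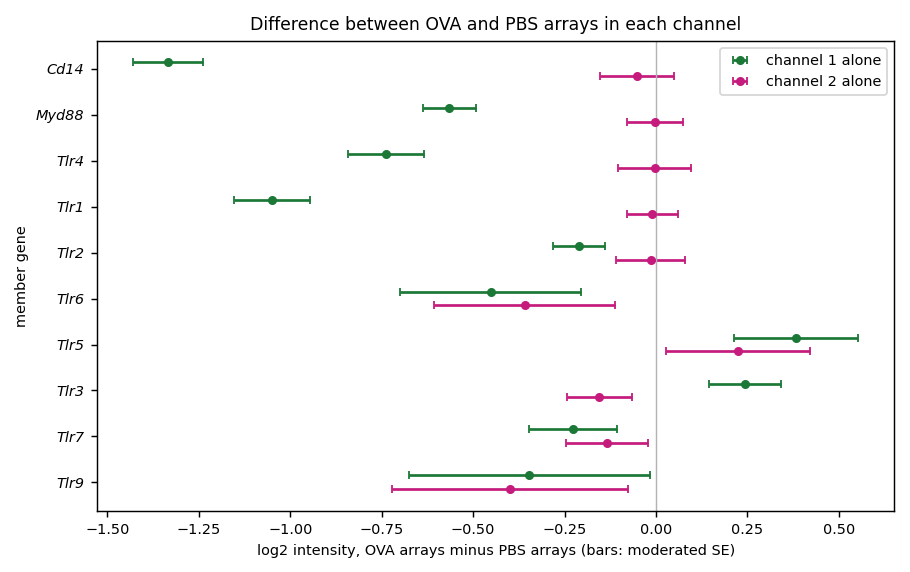
Log2 intensity on the OVA arrays minus that on the PBS arrays for each member, in channel 1 alone (green) and channel 2 alone (magenta), with moderated standard errors. Channel 2 lies at or near 0 for Cd14, Myd88, Tlr4, Tlr1 and Tlr2, while channel 1 lies between -1.33 and -0.21 for them.

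In the authors' deposited table each probe has a p-value for the 2 channels of an array. There, Cd14, Tlr1, Tlr4 and Myd88 were under 0.05 on all 5 OVA arrays, and the weakest of these 20 values was 0.0044, for Myd88 on OVA replicate 1. In the authors' deposited table Tlr3 was under 0.05 on 2 OVA arrays, and Tlr2, Tlr5, Tlr6, Tlr7 and Tlr9 on none. None of the members was under 0.05 on a PBS array in the authors' deposited table.

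Promoter sequences, from 250 bases before to 50 after a transcription start in RefSeq on GRCm38.p6, were at hand for 7 members. Shown are those of the called members with a sequence at hand, so that their motifs can be read side by side. None was at hand for Cd14 and Tlr4, which had a higher ratio too. Tlr3 had the lower ratio, and the call of Tlr2 did not hold up. For Tlr1, 1 of its 2 starts is shown, the other having no match. Capitals mark matches on either strand to the motifs of NF-kB, AP-1 (TGANTCA), PU.1 (GAGGAAGT), interferon response (ISRE) and STAT6.
Myd88, chr9:119339969-119340268, minus strand: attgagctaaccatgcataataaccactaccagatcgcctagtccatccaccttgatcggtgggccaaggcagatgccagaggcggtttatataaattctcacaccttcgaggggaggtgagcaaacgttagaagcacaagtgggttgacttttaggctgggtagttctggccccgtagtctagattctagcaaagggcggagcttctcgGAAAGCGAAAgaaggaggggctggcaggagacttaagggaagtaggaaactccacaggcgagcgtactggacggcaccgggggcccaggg
Tlr1, chr5:64933509-64933808, minus strand: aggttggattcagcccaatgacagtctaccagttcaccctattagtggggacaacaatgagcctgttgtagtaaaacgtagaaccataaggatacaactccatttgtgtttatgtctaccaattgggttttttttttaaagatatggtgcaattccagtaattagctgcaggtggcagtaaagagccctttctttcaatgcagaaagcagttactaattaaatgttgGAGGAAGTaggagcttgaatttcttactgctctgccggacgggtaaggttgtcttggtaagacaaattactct
Tlr2, chr3:83841559-83841858, minus strand: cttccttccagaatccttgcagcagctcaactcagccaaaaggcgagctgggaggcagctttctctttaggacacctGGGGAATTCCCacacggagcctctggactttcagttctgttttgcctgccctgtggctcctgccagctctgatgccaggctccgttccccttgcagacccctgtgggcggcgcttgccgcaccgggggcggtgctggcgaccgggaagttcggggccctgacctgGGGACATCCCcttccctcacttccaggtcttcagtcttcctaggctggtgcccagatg
Tlr3, chr8:45410331-45410630, minus strand: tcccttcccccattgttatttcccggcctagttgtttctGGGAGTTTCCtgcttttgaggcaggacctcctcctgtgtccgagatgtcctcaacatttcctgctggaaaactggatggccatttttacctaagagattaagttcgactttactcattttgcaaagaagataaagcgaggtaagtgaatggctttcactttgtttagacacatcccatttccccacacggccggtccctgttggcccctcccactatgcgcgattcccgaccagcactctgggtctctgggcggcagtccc

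The 3 of these genes with a higher ratio held different motifs: an interferon response motif in Myd88, a PU.1 motif in Tlr1 and NF-kB motifs in Tlr2, where 3 overlapping matches form the first capital run. Tlr3, with the lower ratio, held an NF-kB motif too. No motif was shared by all 3 of these genes in these windows, and Cd14 and Tlr4 had no window to search. Of 32851 RefSeq windows of the same length, 4.51% held an NF-kB motif, 3.44% an interferon response motif, 3.2% a PU.1 motif, 7.81% an AP-1 motif and 6.95% a STAT6 motif. Of the members that did not pass the test, Tlr9 held an AP-1 and a PU.1 motif, Tlr6 overlapping interferon response motifs at 1 of its starts and Tlr5 none. The STAT6 motif was in 0 of the 9 windows. A match describes letters only.

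The rest of the pathway was taken from a list by role, with 60 of 63 genes on the array. Of these, 26 were higher and 10 lower, with a median log2 change of 0.14 (limma, adjusted p under 0.05, against 17.3% and 23% of all genes). With quantile normalised ratios 18 were higher and 3 lower, against 7.92% and 7.49% of all genes. The log2 changes were then 1.77 for Traf6, 1.86 for Cxcl10, 1.90 for Il6, 1.17 for Socs1, 1.14 for Ly86, 0.72 for Irf5 and 0.43 for Nfkb2, each smaller than the value given below and still called. Among receptors and co-receptors outside the members, 3 of 9 were higher and 1 lower. Ly86 (MD-1), the partner of the receptor homologue Cd180, was 3.42-fold higher (log2 change 1.77 ± 0.09 SE at an adjusted p of 2.53e-06). Cd180 itself was at 0.035 (adjusted p = 0.87), but its probe was dim, with mean intensities from 0.064 to 0.0675. Cd36, a scavenger receptor that assists Tlr2 with Tlr6, was lower (-0.28 ± 0.05, adjusted p = 0.0014, and 0.32 with quantile normalised ratios). Tlr8, Tlr11, Tlr12 and Tlr13, the receptors not followed above, did not pass the test, with log2 changes from -0.053 to 0.20. Tlr11 and Tlr13 were dim too, with mean intensities from 0.048 to 0.08.

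Of the proteins that fold and carry the receptors, Unc93b1, which takes the nucleic acid receptors to endosomes, was 1.87-fold higher (log2 change 0.90 ± 0.04 SE at an adjusted p of 1.27e-06). Its clients Tlr3, Tlr7 and Tlr9 were not higher. Hsp90b1 (gp96), a chaperone of the endoplasmic reticulum that many receptors need, was 1.76-fold higher (adjusted p = 1.44e-05), and its partner Cnpy3 was at 0.038 (adjusted p = 0.44). Of 5 other adaptors, 1 was higher and 2 lower, all by little. Tirap, the bridge between Tlr4 and Myd88, was at 0.19 ± 0.04 SE (adjusted p = 0.0065), Sarm1, an inhibitory adaptor, at -0.38 ± 0.12 (0.038), and Pik3ap1, a link to PI3 kinase, at -0.35 ± 0.09 (0.016, and 0.40 with quantile normalised ratios). The call of Sarm1, whose 4 mean intensities were at most 0.046, was lost without PBS replicate 1 or 2 (adjusted p = 0.10 each) or OVA replicate 1 (0.080), 3 (0.081) or 5 (0.082), and with quantile normalised ratios (0.15).

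Of the 14 kinases and ubiquitin enzymes on the array, 5 were higher and 5 lower. Traf6, the ubiquitin ligase that Myd88 signalling runs through, differed far more than the others: its ratio was 5.75-fold higher (log2 change 2.52 ± 0.11 SE at an adjusted p of 9.34e-07). Its mean intensity was 1.21 in both channels of the PBS arrays, 1.15 in channel 2 of the OVA arrays and 0.20 in channel 1 of the OVA arrays. Ikbke, a kinase that acts on interferon regulatory factors, was 1.73-fold higher (adjusted p = 9.69e-05). Ripk1, a kinase of the Ticam1 branch, was 1.36-fold higher (adjusted p = 0.0045, and 0.34 with quantile normalised ratios). Of the 5 lower genes, at most 3 kept their call with quantile normalised ratios, where 3 pathway genes were lower in all. The lower genes, named after their values were seen, were closer to 0. They were the ubiquitin ligase Peli1 at -0.43, Tab3 at -0.41 and Tab2 at -0.28, which bind ubiquitin chains for the kinase Tak1, Ikbkg (NEMO), the regulatory subunit of the IkB kinase, at -0.27 and Irak1, a kinase recruited by Myd88, at -0.26 (adjusted p from 6.03e-05 to 0.035).

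Of 8 transcription factors, 4 were higher and 1 lower. Irf5, an interferon regulatory factor that Myd88 activates, was 2.19-fold higher (log2 change 1.13 ± 0.07 SE at an adjusted p of 5.54e-06). The NF-kB subunits Relb and Nfkb2 were 1.67-fold (adjusted p = 1.61e-05) and 1.61-fold higher (1.18e-04). Of the other subunits, named after their values were seen, Rela was lower (log2 change -0.28, adjusted p = 2.43e-04), and Nfkb1 at 0.026 and Rel at 0.25 did not pass. With quantile normalised ratios 3 pathway genes were lower in all, and whether Rela was among them is not shown here. The probe of Rel was dim, with mean intensities of at most 0.038. Of 10 inhibitors, 6 were higher and 1 lower. Socs1, a brake on cytokine signalling, was 3.49-fold higher (log2 change 1.80 ± 0.10 SE at an adjusted p of 3.20e-06), Nfkbie, an inhibitor of NF-kB, 2.37-fold (9.20e-06) and Tnfaip3 (A20), a ubiquitin editor that restrains Traf6, 1.64-fold (0.0014, and 0.072 with quantile normalised ratios).

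Of 11 inflammatory targets of the pathway, 5 were higher and none lower, against 17.3% and 23% of all genes. Those that did not pass, named after their values were seen, were Tnf at a log2 change of -0.040, Il12b at -0.054, Nos2 at 0.038, Ifnb1 at 0.13, Ptgs2 at 0.25 and Il1b at 0.30. Cxcl10, an interferon-induced chemokine, was 6.95-fold higher (log2 change 2.80 ± 0.17 SE at an adjusted p of 4.82e-06), the cytokine Il6 6.81-fold (2.77 ± 0.17, adjusted p = 5.45e-06) and the neutrophil attractant Cxcl1 2.96-fold (adjusted p = 4.80e-05). These genes are also induced by other pathways. The mean intensity in channel 1 of the OVA arrays was 0.12 for Cxcl10, 0.072 for Il6 and 0.11 for Cxcl1, below the median of 0.14. What rounding allows for these 3 folds was not worked out.

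**Figure D4:**
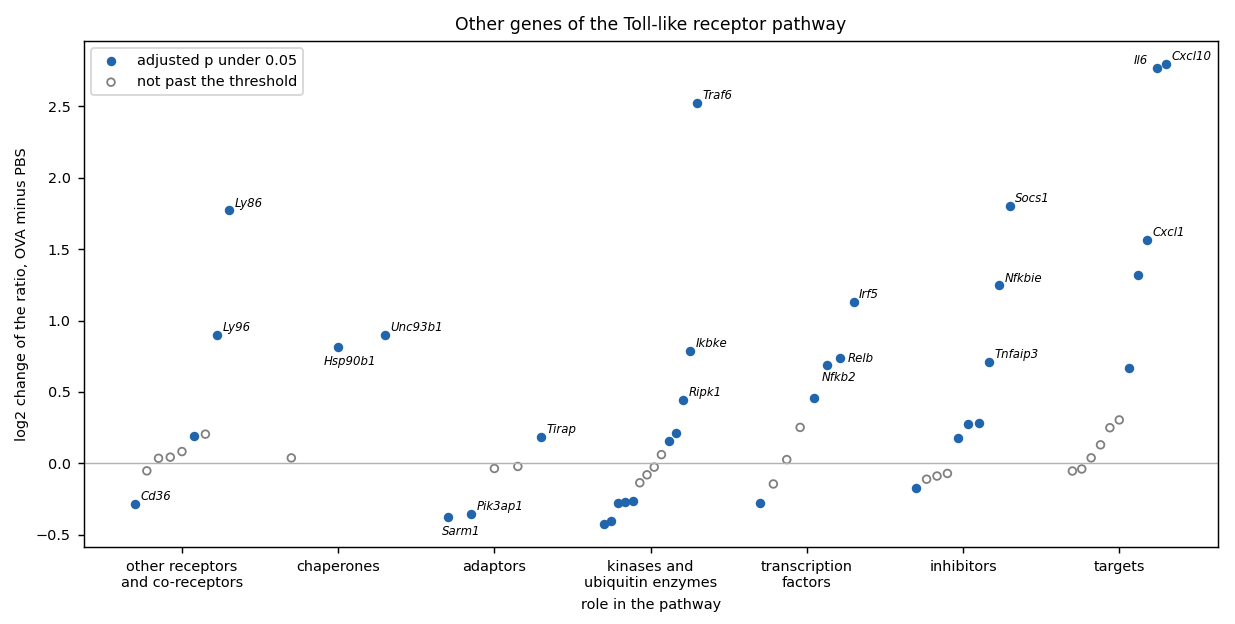
Log2 change of the ratio (OVA minus PBS arrays) of the 60 other pathway genes, ordered within each role. Filled blue points passed the threshold (26 higher, 10 lower) and open points did not. Traf6 at 2.52, Cxcl10 at 2.80 and Il6 at 2.77 lie above the rest, and the lowest value is -0.43 (Peli1).

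Markers of cells that carry these receptors were read from the same fit, in which 17.3% of all genes were higher and 23% lower. Of 5 tested macrophage markers, 4 were higher and none lower, among them Mrc1 at a log2 change of 1.96 and Adgre1 (listed as Emr1) at 2.84-fold. Marco, whose mean intensities were at most 0.124, was at -0.25 and did not pass (limma, adjusted p = 0.49). The summed intensity of these 5 markers was 7.25 to 8.32 in channel 1 of the OVA arrays, against 19.6 to 21.7 in their channel 2 and 20.7 to 22.1 over both channels of the PBS arrays. A sixth marker, Itgam, had a value on only 1 OVA array at its brightest probe. Of 5 dendritic cell markers, 3 were higher and 1 lower, with Itgax at 6.66-fold and Flt3 at 2.20-fold. The lower one was Zbtb46, a factor of conventional dendritic cells (log2 change -0.28, adjusted p = 0.019), and Clec9a, a marker of a dendritic cell subset, was at -0.12 and did not pass. Their sum was 5.70 to 6.39 in channel 1 of the OVA arrays and 20.8 to 22.1 in all other channels, but most of it was Itgax. Without Itgax the sum of the other 4 was not lower there, with 2.94 to 3.60 in channel 1 of the OVA arrays and 2.58 to 2.95 elsewhere. For macrophages, the sum without its brightest marker, Csf1r, was 3.20 to 3.64 in channel 1 of the OVA arrays and 9.68 to 10.9 elsewhere.

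Of 5 neutrophil markers, 1 was higher and 2 lower (S100a8 at a log2 change of -0.61 and S100a9, whose groups overlapped, at -0.53). The higher one, named after its value was seen, was Cxcr2 at 0.31 (limma, adjusted p = 0.0040). Mpo at 0.14 and Elane at 0.21 did not pass. The sum of the 5 was 25.7 to 37.4 in channel 1 of the OVA arrays and 18.8 to 25.8 in the other channels. Without S100a9 the sums overlapped, with 7.24 to 9.70 against 6.25 to 8.37. None of 5 B cell markers passed the test (sum 2.20 to 4.02 over all channels). Of 4 T cell markers only Cd4 did, at 0.21 (sum 1.38 to 2.78). Of 3 markers of plasmacytoid dendritic cells, which are rich in Tlr7 and Tlr9, 2 were higher, Bst2 at 0.61 and Siglech at 0.32 (sum 2.35 to 3.60). Ly6d was at -0.18 and did not pass (limma, adjusted p = 0.77), and its channel 1 was uneven on the OVA arrays (mean 0.84, SD 0.67). Without Bst2 the sum was 1.00 to 2.64 in channel 1 of the OVA arrays and 1.30 to 1.55 elsewhere. The leukocyte marker Ptprc was at 0.52 (adjusted p = 0.0013). All 5 endothelial markers were lower, Kdr at -1.04 and Tek at -1.02 among them, with a sum of 17.2 to 20.2 in channel 1 of the OVA arrays and 9.68 to 12.7 elsewhere. None of the 4 muscle and 3 adipose tissue markers passed the test, although their sums reached 24.1 and 4.54 in channel 1 of the OVA arrays, against 9.38 and 3.45 at most on the PBS arrays. No marker was at 0 in any channel, and the part of these cells in the values of the members was not tested.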

How the data were processed

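Lung RNA was hybridised with Cy3 in channel 1 and Cy5 in channel 2, per the labels, and, per the submitters' processing notes, read with Agilent's Feature Extraction software (version 8.5.1.1). The deposited table holds 2 intensities and a p-value per probe and array, per the file headers. Each channel as deposited by the authors sums to between 41722 and 43610, and how they subtracted background, normalized dyes and modelled error is not given in the sources used here. A second deposited table holds log10 ratios (column medians 0), and only their match to channel 2 over channel 1 gives their scale and direction. The 2 channels of an array were equal, after rounding, for 27.7% to 48.8% of probes.

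Symbols were updated with RefSeq (GRCm38.p6; 22966 current, 3126 synonyms, 55 by accession, 3965 as in the file, 9317 unnamed and 35 whose symbol reads as a date). A gene was its brightest probe. Log2 ratios of 25720 genes with at least 2 values in each group were fitted in R 4.3.3 by the limma package, version 3.58.1 (eBayes after lmFit, no covariates, two-sided, p adjusted by Benjamini-Hochberg over every gene tested), and log2 intensities of each channel likewise. The fit was tested on simulated data. The members, lists and named genes (all members, up to 3 called genes per role, up to 2 per marker list) were chosen with earlier results of these data known. The alternatives changed the normalization, low intensities, probes, pairing, arrays, prior, threshold and sign.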

Additional observations from a re-analysis of the deposited data

Results flagged for a closer look

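Of 60 sets of values (each member in each group, as ratio and in each channel), 11 had 1 array far from the others for the size of the group. Chance flags about 1 in 20 sets of unrounded values. Rounding makes many of these values equal, so that rate does not hold here and the count cannot be set against it. On the log2 scale, those set apart in the ratio were Cd14 on OVA replicate 1 (1.17, the nearest at 1.33), Tlr5 on PBS replicate 1 (0.19, the nearest at 0), Tlr7 on PBS replicate 1 (0.17, the nearest at 0) and Tlr7 on OVA replicate 1 (0, the nearest at 0.17). In channel 1 they were Tlr1 on PBS replicate 4 (-3.06), Tlr3 on PBS replicate 2 (-3.06) and Myd88 on OVA replicate 4 (2.61). In channel 2 they were Tlr1 on PBS replicate 3 (-2.84), Tlr2 on OVA replicate 2 (0.64), Tlr3 on PBS replicate 1 (-3.18) and Tlr7 on OVA replicate 1 (-3.64). For Tlr1, Tlr3 and Tlr7 the single-channel values lay 0.01 or 0.02 in intensity from the nearest array, which is 1 or 2 steps of the rounding. In the sets where a ratio of Tlr5 or Tlr7 stood apart, the channels of each array were equal or differed by 0.01.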

How the results depend on the processing

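The 4 largest rises and the fall of Tlr3 kept their direction and their call at an adjusted p under 0.05 in all 20 other fits apart from the one with the turned sign. Some of the 20 could hardly move them. Median centring changed nothing, the deposited log10 ratios are nearly the same ratios, and each member has 1 probe, so the probe settings kept its log2 change. The log2 change nearest 0 was 0.87 for Cd14, 0.66 for Tlr1, 0.59 for Tlr4, 0.42 for Myd88 and -0.28 for Tlr3. Tlr2 was not called under 11 of the 20 (adjusted p from 0.0081 to 0.67 over all 20). With quantile normalised ratios Tlr7 was at -0.041, 2036 of all genes were higher and 1927 lower against 4455 and 5912, and 3 pathway genes were lower. Asking for at least 2-fold left 2 members higher and 0 lower, 9 and 0 pathway genes, and 632 and 151 of all genes. An adjusted p under 0.01 left 6 pathway genes lower. In channel 1 alone, quantile normalisation gave 2 members higher, and leaving out 1 array gave 0 to 1 higher (1 without OVA replicate 4) and 4 to 5 lower. With 1 array left out, 4 to 6 members were higher and 1 lower in the ratio.

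With the OVA ratios turned in sign, 1 member was higher and 6 lower, and 7 and 27 pathway genes. The log2 changes were then -1.35 for Cd14, -0.98 for Tlr1, -0.68 for Tlr4, -0.54 for Myd88, -0.19 for Tlr2, -0.18 for Tlr7, -0.032 for Tlr6, 0.053 for Tlr9, 0.062 for Tlr5 and 0.27 for Tlr3. They were -1.84 for Ly86, -0.83 for Ly96, 0.25 for Cd36, -0.85 for Unc93b1, -0.72 for Hsp90b1, 0.0089 for Sarm1, 0.25 for Pik3ap1, -0.14 for Tirap, -2.50 for Traf6, -0.75 for Ikbke and -0.56 for Ripk1. They were -1.17 for Irf5, -0.72 for Relb, -0.75 for Nfkb2, -1.89 for Socs1, -1.22 for Nfkbie, -0.72 for Tnfaip3, -2.84 for Cxcl10, -2.80 for Il6 and -1.61 for Cxcl1. This follows from the turn itself.

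The labels do not say whether arrays of the same number share more than a number. The correlation of their deviations lay between -0.15 and -3.5e-04, and none of the 4 PBS arrays correlated best with its own number. The ratios of the PBS arrays had little in common even with each other (r from -0.29 to 0.14), and a shared batch was not tested. With the replicate block, over 8 arrays, 4 members were higher and 1 lower, Tlr2 having an adjusted p of 0.21. The cause of these moves was not tested. Background and saturation flags were not used, so the limits of the dim probes are known only from the rounding.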

Other observations

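The genes most like the 3 brightest members were looked up among 12775 genes at or above the median intensity, by the correlation of log2 intensity over the 18 channels (9 arrays with 2 channels each, so channels share an array). This is a description with no test, and a low channel 1 of the OVA arrays shared by 2 genes raises r by itself. Myd88 was most like Hspa5, a chaperone of the endoplasmic reticulum (r = 0.990), Hemk1, a methyltransferase (0.986), and Ddx39a, an RNA helicase (0.985). The ratios of these 3 were also higher on the OVA arrays, with log2 changes of 0.72, 0.63 and 0.75. Tlr4 was most like Thyn1 (0.977), Prim2, a subunit of DNA primase (0.975), and Nme1, a nucleoside diphosphate kinase (0.974), whose log2 changes were 0.48, 0.55 and 0.57. Tlr2 was most like Dnajb9, a co-chaperone of Hspa5 (0.931), Rsph1, a protein of the ciliary axoneme (0.878), and Cebpd, a transcription factor of the acute phase (0.876). Their log2 changes were 0.33, 0.25 and 0.59, that of Rsph1 not passing the test.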
